A study of Linum usitatissimum with 8 samples.

Results

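A set of 94 flax (Linum usitatissimum) genes was described that stood highest in seeds of the stage labelled DAP20 and far lower at every other stage sampled. The genes were chosen by their measured levels. Both DAP20 libraries had to reach 20 CPM (a gene's count for every 1000000 counts of the library), and the lower of them had to be at least 3 times the highest of the 6 other libraries. Of the 38306 genes with a Lus ID in a table of 40518 rows, 94 met this rule, and none of the 2212 gene models added by the authors would have met it. RNA had been sequenced from seed of 1 flax cultivar, Heiya No.14. There were 2 libraries each of the stages DAP5, DAP10, DAP20 and DAP30, as the labels write them. All groups share this cultivar and tissue, and no treatment or mutant is named. The stage names are not spelled out. Nothing says that both libraries of a stage were grown or extracted apart, so the p-values below reflect only how far these libraries differ, and that difference may be technical.

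A developing flax seed passes from cell division in the embryo and the young coat through a filling phase, in which the cotyledons lay down oil rich in alpha-linolenic acid and storage proteins, to a late phase of drying. Many transcripts of a filling seed are made for a limited time, and a gene measured at few stages can show such a window as a peak at 1 stage. The file pairs no gene ID with a name, so no role can be given to any of the 94 genes, and the seed label could not be checked against marker genes. Reads shared by near-identical gene copies could not be recognised either. In whole seeds, fewer cells of a type and less RNA per cell cannot be told apart.

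Library totals ran from 12951493 to 27691831 counts. Levels below are CPM scaled by TMM, a method that sets libraries to a common scale by assuming that most genes do not change, unless they are said to use library totals. The scaling factors lay between 0.757 and 1.45 and were highest at DAP5 and lowest at DAP30, so the choice of scale moves comparisons between stages. With library totals in place of TMM, the log2 fold changes over all 28749 tested genes had a median of -0.39 in place of -0.02 for DAP10 against DAP5, -0.70 in place of -0.21 for DAP30 against DAP10, and -1.11 in place of -0.24 for DAP30 against DAP5.

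Of the 3 other stages, DAP30 set the limit that fewest genes met. Of the Lus IDs, 6979 reached 20 CPM on library totals in both DAP20 libraries. The lower DAP20 library was at least 3 times both DAP5 libraries for 795 of these, at least 3 times both DAP10 libraries for 652, and at least 3 times both DAP30 libraries for 318. As many as 521 genes stood 3-fold above both earlier stages, and 427 of them missed the rule only through their level at DAP30. Of these 427, 256 had a DAP30 mean at or above their DAP20 mean. In contrast, 30 genes missed the rule only through DAP10 and 13 only through DAP5. With any other stage in the place of DAP20 the same rule found 552 genes at DAP5, 150 at DAP10 and 109 at DAP30.

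Members differed widely in how far they cleared the rule. The ratio of the lower DAP20 library to the highest other library, on library totals, had a median of 5.30 and ran from 3.02 to 474. It was at least 10 for 31 genes and below 3.5 for 21. The gene just inside was Lus10040687.g.BGIv1.0, with 147 CPM in the lower DAP20 library and 48.7 CPM in DAP30 replicate 2, a ratio of 3.02. The gene just outside was Lus10001570.g.BGIv1.0, with 122 and 40.7 CPM in the corresponding libraries, a ratio of 2.99. At the minimum level, Lus10042204.g.BGIv1.0 entered with 20.4 CPM in its lower DAP20 library and Lus10040102.g.BGIv1.0 stayed out with 19.5 CPM. The limit thus separates genes with nearly equal values. The highest of the other libraries was one of DAP10 for 43 genes, one of DAP30 for 32 and one of DAP5 for 19.

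The members took 5.79% and 6.47% of all counts in the DAP20 libraries, and their share was far lower elsewhere. It was 0.0784% and 0.0743% at DAP5, 0.116% and 0.113% at DAP10, and 0.509% and 0.770% at DAP30. A single gene, Lus10004895.g.BGIv1.0, made up 64.6% and 70.9% of the members' counts in the DAP20 libraries, and 0.381% and 0.578% of all counts at DAP30. Without it the members held 2.05% and 1.88% of the counts at DAP20 and 0.128% and 0.192% at DAP30. These shares follow from the choice of the genes and are given as a description.

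**Figure D1:**
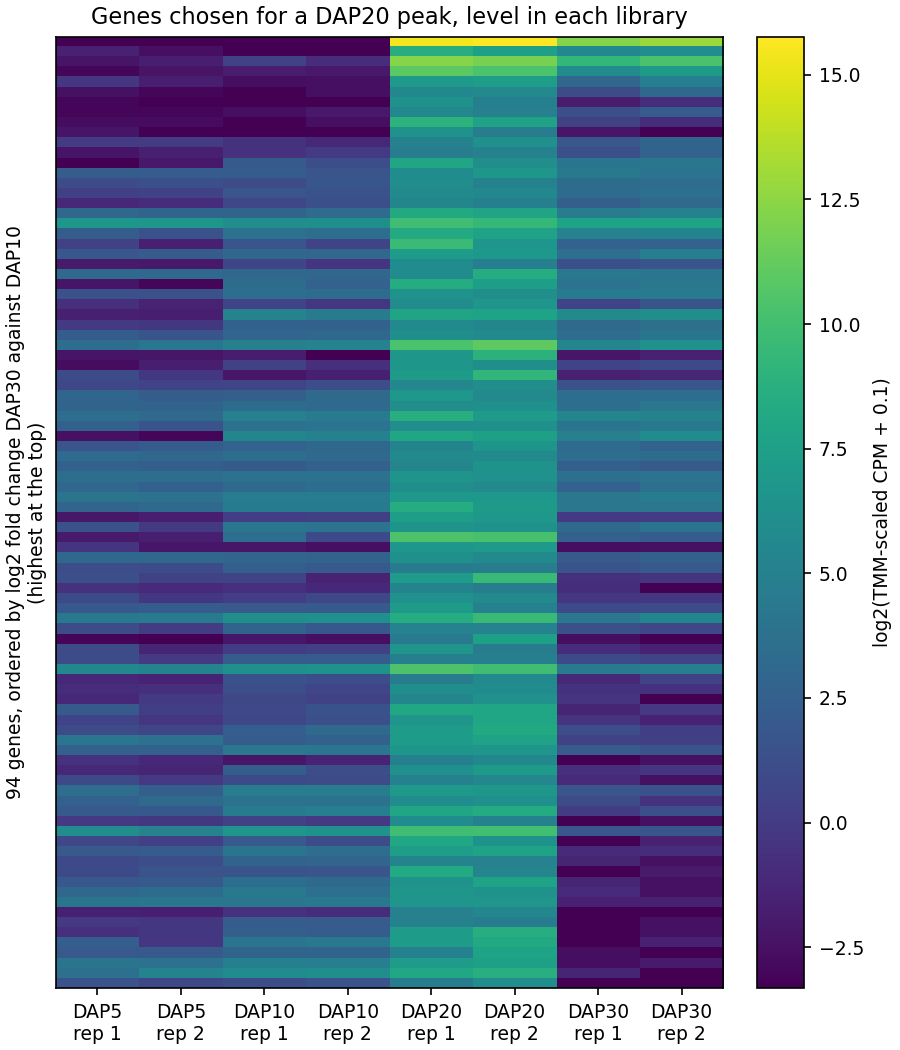
Levels of the 94 genes (rows) in the 8 libraries (columns), as log2 of the TMM-scaled CPM plus 0.1, with rows ordered by the fitted log2 fold change of DAP30 against DAP10. All rows are brightest at DAP20, which the rule requires, while the DAP30 columns are mostly brighter in the upper rows than in the lowest rows.

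Most members were moderately expressed at their peak. The mean of the 2 DAP20 libraries had a median of 102 CPM over the 94 genes, with quartiles of 58.1 and 245 CPM and a range from 25.4 to 50099 CPM. The median over the genes of the stage means was 1.59 CPM at DAP5, 4.74 CPM at DAP10 and 2.97 CPM at DAP30. Set against its own DAP20 mean, the median gene stood at 1.73% at DAP5, 4.85% at DAP10 and 2.66% at DAP30.

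Lus10004895.g.BGIv1.0 had by far the highest level. It had no count in any of the 4 libraries of DAP5 and DAP10, where 3 counts summed over a stage would equal 0.0389 and 0.0978 CPM. Its levels were 44574 and 55624 CPM at DAP20 and 4791 and 7634 CPM at DAP30. It was thus without counts early, very high at DAP20 in both libraries, and lower at DAP30, where its mean was 12.4% of the DAP20 mean. Lus10004471.g.BGIv1.0 came next, with 0.109 and 0.199 CPM at DAP5, 1.21 and 0.424 CPM at DAP10, 4989 and 3669 CPM at DAP20, and 649 and 1264 CPM at DAP30. Both leading genes were therefore at or near 0 before DAP20 and kept a part of their level afterwards. The third to sixth genes had DAP20 means between 1188 and 1699 CPM.

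The highest and second-highest genes were the same per length, while the order below them changed. Per kilobase of the deposited gene length, on the TMM scale, the DAP20 mean of Lus10004895.g.BGIv1.0 was 47174 CPM and that of Lus10004471.g.BGIv1.0 was 2826 CPM, the highest and second-highest values of the set, against a median of 62.7 CPM per kilobase. Of the 10 genes highest by CPM, 7 were also among the 10 highest per kilobase. The deposited lengths of the members had a median of 1878 and ran from 469 to 6020. The median was 2011 over all genes tested and 2462 over the Lus IDs at 20 CPM or more in both DAP20 libraries. The labels do not define this length.

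The comparisons among DAP5, DAP10 and DAP30 ask how the members behaved on either side of their peak. The rule used these stages only as an upper limit, and differences among them were tested with edgeR's quasi-likelihood test in a fit over all genes and all 8 libraries. That limit did not act evenly, since 427 genes failed only through DAP30, 30 only through DAP10 and 13 only through DAP5. All 427 had a DAP30 mean above their DAP10 mean. The shares of members called are therefore shaped in part by the choice of the genes, while the shares over all genes are not. A Benjamini-Hochberg adjusted p (FDR) below 0.05 was called a change. The 3 comparisons share libraries with each other. All 94 genes passed the filter on low counts, some of them only through DAP20: in a fit without the DAP20 libraries 86 passed. Few counts limit the low stages, since 12 genes had fewer than 10 counts summed over DAP5, 14 over DAP10 and 24 over DAP30.

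Already before the peak, calls among the members went nearly all one way. At DAP10 against DAP5, 37 members (39.4%) rose and 1 (1.06%) fell, while 56 were not called. Over all genes tested, 12.4% rose and 11.2% fell. The median log2 fold change was 0.97 over the members and -0.02 over all genes tested. The rise is not shown to be particular to the members, since other sets of genes high at DAP20 rose too. The 427 genes failing only through DAP30 had medians of 3.70 and 3.95 CPM at DAP5 and 9.33 and 8.61 CPM at DAP10. The 84 genes meeting the rule in DAP20 replicate 1 alone had 2.07 and 1.99 CPM, then 4.97 and 4.24 CPM. The 13 genes failing only through DAP5 had lower medians at DAP10. These sets have no test. In the fit without the DAP20 libraries 40 of the 86 members tested rose and 3 fell, beside 16.9% and 16.3% of all genes tested in that fit. Leaving out DAP10 replicate 1 left 17 members called higher, where 4.00% of all genes were, and leaving out DAP10 replicate 2 left 23, where 4.39% of all genes were.

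The largest early rise was that of Lus10015877.g.BGIv1.0. It had 42.7 and 32.9 CPM at DAP10, against 0.0815 and 0.0248 CPM at DAP5, where it had 3 and 1 counts. Its summed, depth-scaled counts were 735 times as high at DAP10, within exact 95% binomial bounds of 286 and 2704 that cover counting error only. The fitted log2 fold change was 9.35 ± 0.54 (SE, edgeR FDR = 0.000195). It became 10.23 when DAP5 replicate 1 was left out and 8.74 when DAP5 replicate 2 was. Both DAP10 libraries were thus far above both DAP5 libraries. The level then reached 241 and 183 CPM at DAP20 and was 31.8 and 58.4 CPM at DAP30, so the DAP30 and DAP10 libraries overlapped. Lus10016748.g.BGIv1.0 had 37.8 and 24.8 CPM at DAP10, against 0.217 and 0.199 CPM at DAP5, and edgeR put the rise at 7.20 ± 0.32 on the log2 scale (SE, FDR = 7.78e-05). It went on to 228 and 219 CPM at DAP20 and 53.9 and 67.7 CPM at DAP30. These genes were detected at every stage and had come on strongly by DAP10.

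The 1 member that fell in this step was Lus10010391.g.BGIv1.0, with 4.66 and 6.07 CPM at DAP10, against 17.6 and 13.8 CPM at DAP5. The log2 fold change was -1.55 ± 0.25 (SE, edgeR FDR = 0.00598), and the call was lost without DAP10 replicate 1 (edgeR FDR = 0.0659, with 8.23e-06 to 0.0659 over the 16 alternatives run for this gene). Its levels were 139 and 207 CPM at DAP20 and 1.25 and 1.12 CPM at DAP30. Both its DAP10 libraries were thus below both its DAP5 libraries, while its separation from DAP20 is set by the rule.

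**Figure D2:**
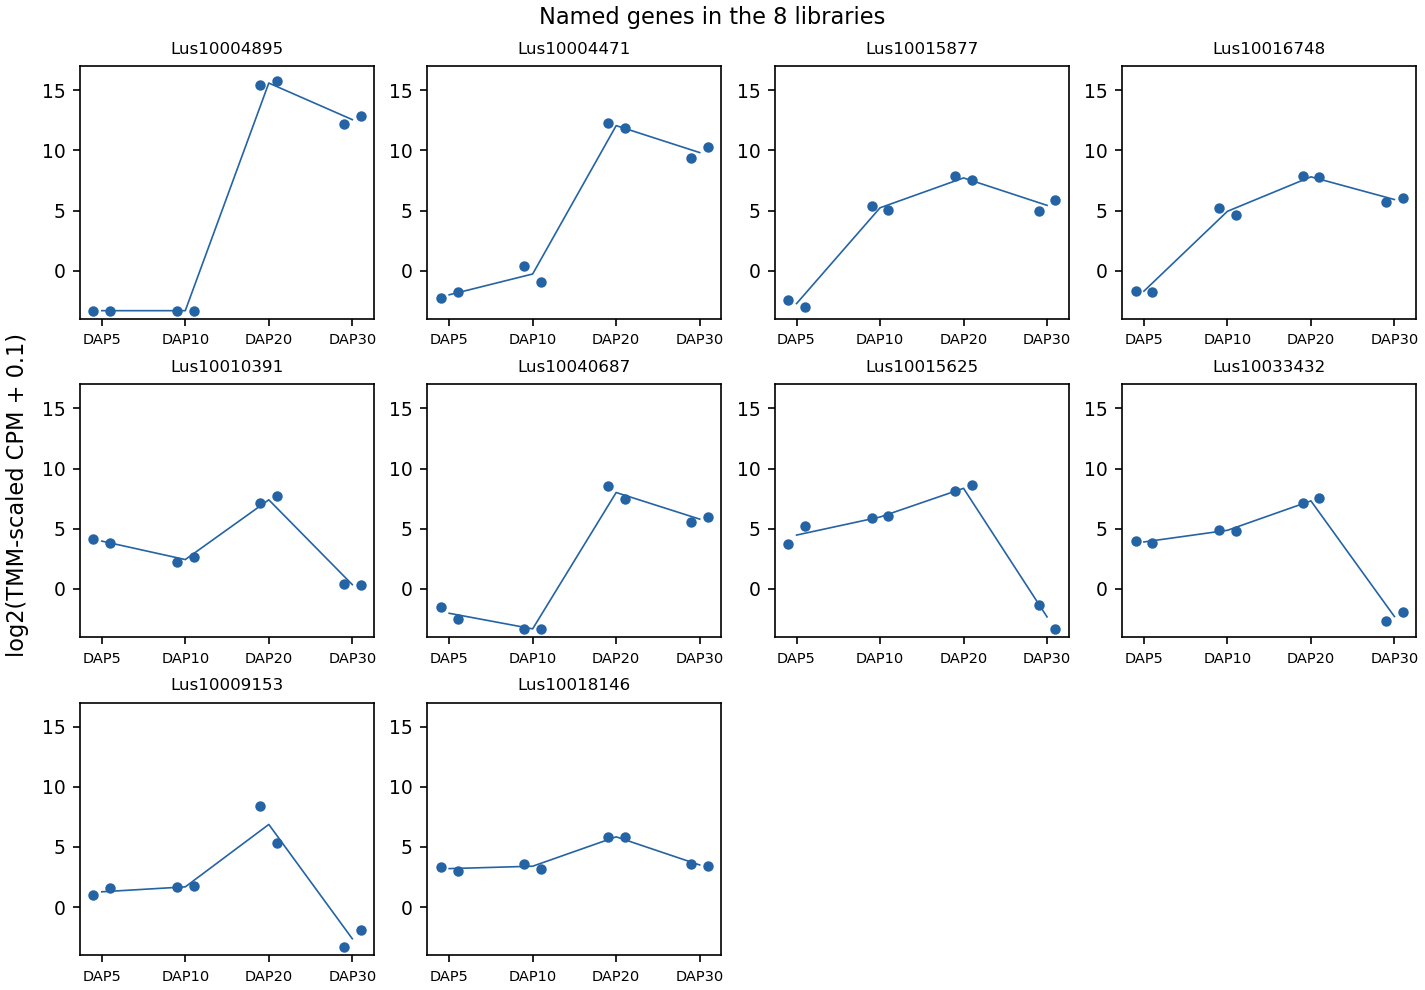
Levels of 10 of the members named in the text, as log2 of the TMM-scaled CPM plus 0.1, at DAP5, DAP10, DAP20 and DAP30. Points are single libraries, 2 at each stage, and lines join their means on this scale, with DAP20 the highest point in each panel.

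Between the stage before and the stage after the peak, members went both ways. At DAP30 against DAP10, 23 members (24.5%) were higher and 32 (34.0%) lower, and 39 were not called. Over all genes tested, 29.3% were higher and 36.7% lower, so both shares lie near the background and show nothing particular to these genes. The upper limit that the rule set at DAP30 also bears on the members' shares. The median log2 fold change was -0.30 over the members and -0.21 over all genes tested. The members' own values nevertheless spread widely. The 23 genes that were higher had a median of 129 CPM at DAP20, 18.2 CPM at DAP30 and 2.66 CPM at DAP10. The 32 genes that were lower had a median of 119 CPM at DAP20, 0.347 CPM at DAP30 and 7.04 CPM at DAP10. Of these 32, 21 averaged below 1 CPM at DAP30 and 2 had no count there. The groups were split by this call, so their DAP30 and DAP10 medians are a description, and single genes overlap. Lus10030070.g.BGIv1.0 and Lus10042281.g.BGIv1.0, called lower, averaged 31.7 and 26.8 CPM at DAP30, while Lus10040957.g.BGIv1.0, called higher, averaged 0.832 CPM. These 3 genes were picked out after their values were seen.

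**Figure D3:**
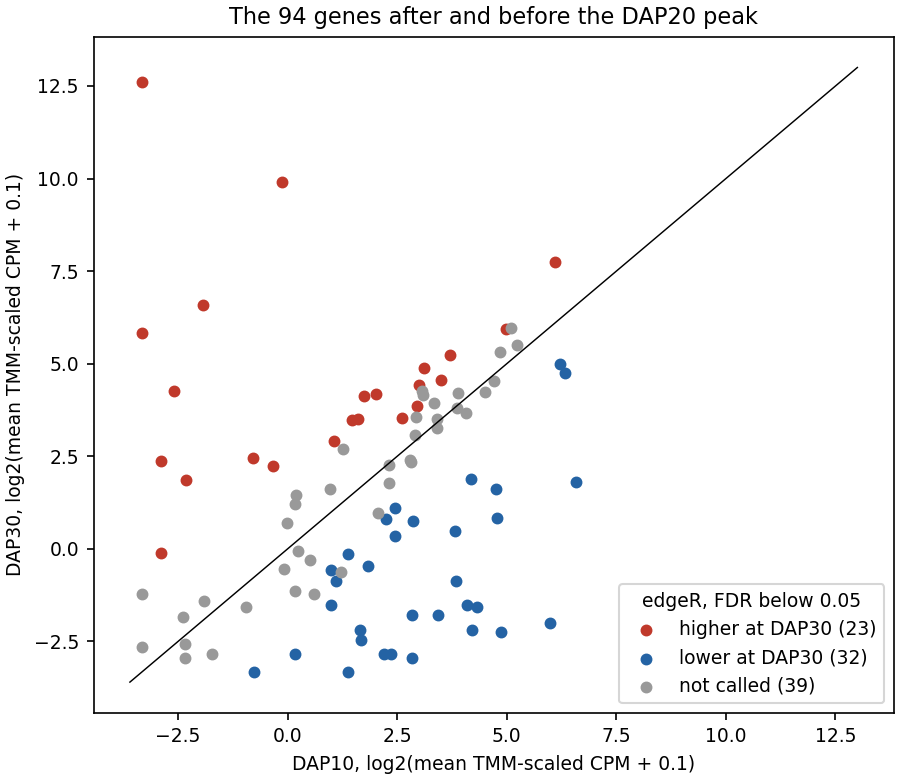
Mean level of each of the 94 genes at DAP30 (vertical axis) and at DAP10 (horizontal axis), as log2 of the TMM-scaled CPM plus 0.1, with the line of equal levels. Of the points, 23 were called higher at DAP30, 32 lower and 39 neither, by edgeR with an FDR below 0.05.

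Lus10004895.g.BGIv1.0 showed the largest remaining level. It stood at 4791 and 7634 CPM at DAP30, against no count at DAP10, at least 61389-fold higher with the floor of 3 counts over both DAP10 libraries (edgeR FDR = 4.32e-05). The bound was 28350 without DAP10 replicate 1 and 33039 without DAP10 replicate 2, since the same floor then rests on less depth. Lus10040687.g.BGIv1.0 had 48.04 and 64.4 CPM at DAP30, against no count at DAP10, a rise of at least 563-fold (edgeR FDR = 7.33e-05). The bound was 260 without DAP10 replicate 1 and 303 without DAP10 replicate 2. It had 9 and 3 counts at DAP5, equal to 0.245 and 0.0745 CPM, and 373 and 179 CPM at DAP20. Both genes thus went undetected at DAP10 at the depth of these libraries.

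Other members were near 0 at DAP30. Lus10015625.g.BGIv1.0 had 0.297 and 0 CPM at DAP30, from 5 and 0 counts, against 60.0 and 65.8 CPM at DAP10. The ratio of the summed, depth-scaled counts was 0.00271, with an exact 95% binomial interval of 0.00088 to 0.00634 (log2 fold change -8.50 ± 0.83 SE, edgeR FDR = 0.000102). Without DAP30 replicate 1 no count was left at that stage and the gene was at least 262-fold lower, and without DAP30 replicate 2 the log2 fold change was -7.72. Its DAP5 levels were 13.2 and 36.9 CPM and its DAP20 levels 275 and 393 CPM. This gene was present from the first stage on and lost after DAP20. Lus10033432.g.BGIv1.0 had 0.0593 and 0.159 CPM at DAP30, from 1 and 2 counts, against 30.3 and 28.03 CPM at DAP10. Its ratio of summed, depth-scaled counts was 0.00349, with an exact 95% binomial interval of 0.00072 to 0.0102 (log2 fold change -8.07 ± 0.35 SE, edgeR FDR = 8.79e-06). The log2 fold change was -7.47 without DAP30 replicate 1 and -8.83 without DAP30 replicate 2. It showed the same course, with 15.9 and 13.9 CPM at DAP5 and 139 and 183 CPM at DAP20.

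At DAP30 against DAP5, 40 members (42.6%) were higher and 27 (28.7%) lower, and 27 were not called. Over all genes tested, 31.3% were higher and 38.9% lower. The upper limit that the rule set at DAP30 bears on the members' shares here too. This comparison depends on the scale. With library totals in place of TMM, 32 members were higher and 35 lower, beside 17.3% and 55.4% of all genes tested, and the share of higher genes among the members called was 47.8% in place of 59.7%. The members' median log2 fold change was 0.58 under TMM, above the median of -0.24 over all genes, and -0.29 under library totals, above the median of -1.11 over all genes. Which direction the typical member took over this span is therefore not settled by these data.

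The genes at the ends of this comparison were largely those already described. Lus10004895.g.BGIv1.0 stood at least 154223-fold above DAP5 at DAP30 (edgeR FDR = 2.71e-05). Leaving out DAP5 replicate 1 put this bound at 80593, and leaving out DAP5 replicate 2 put it at 73630. Lus10004471.g.BGIv1.0, with 649 and 1264 CPM at DAP30 against 0.109 and 0.199 CPM at DAP5, was higher by 12.54 ± 0.74 on the log2 scale (SE, edgeR FDR = 1.06e-05). Both kept a level after DAP20 that was far above their starting level. Among members with a mean of at least 5 CPM at DAP5, Lus10015625.g.BGIv1.0 and Lus10033432.g.BGIv1.0 had the largest falls, with log2 fold changes of -7.18 ± 0.82 (SE, edgeR FDR = 0.000173) and -7.10 ± 0.35 (SE, edgeR FDR = 6.30e-06). For Lus10015625.g.BGIv1.0 this value became -6.25 when DAP5 replicate 2 was left out and -6.40 when DAP30 replicate 2 was, and without DAP30 replicate 1 the gene was at least 107-fold lower. For Lus10033432.g.BGIv1.0 it was -6.50 without DAP30 replicate 1 and -7.87 without DAP30 replicate 2.

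The stage second to DAP20 varied among the members. On library totals the second-highest mean was that of DAP10 for 41 members, DAP30 for 34 and DAP5 for 19. Under TMM the numbers were 42, 41 and 11. At least 10% of the DAP20 mean was present at DAP30 in 31 members, with a highest value of 30.4%, and at DAP10 in 28 members. Below 1% of the DAP20 mean were 37 members at DAP5, 22 at DAP10 and 39 at DAP30. Few members were without any count at a stage, namely 1 at DAP5, 4 at DAP10 and 2 at DAP30.

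Contrasts with DAP20 chose the genes, so their calls carry no information. All 94 members were higher at DAP20 than at DAP5, where 29.0% of all genes tested were called higher, and higher than at DAP10, where 25.5% were. All 94 were lower at DAP30 than at DAP20, where 17.4% of all genes were called lower. The median log2 fold changes of the members were 5.85 for DAP20 against DAP5, 4.37 for DAP20 against DAP10 and -5.24 for DAP30 against DAP20.

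The 2 DAP20 libraries differed considerably over these genes. The level differed by more than 2-fold between them in 32 of the 94 members (34.0%) and by more than 3-fold in 13. Of the 6979 Lus IDs at 20 CPM or more in both DAP20 libraries, which include the members, 350 (5.02%) differed by more than 2-fold. The median ratio of the higher to the lower library was 1.48 over the members and 1.18 over those Lus IDs. Neither library was generally the higher one, since replicate 1 led in 15 of the 32 genes and replicate 2 in 17. The members were chosen by values in these same libraries, and no test was made of this difference.

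**Figure D4:**
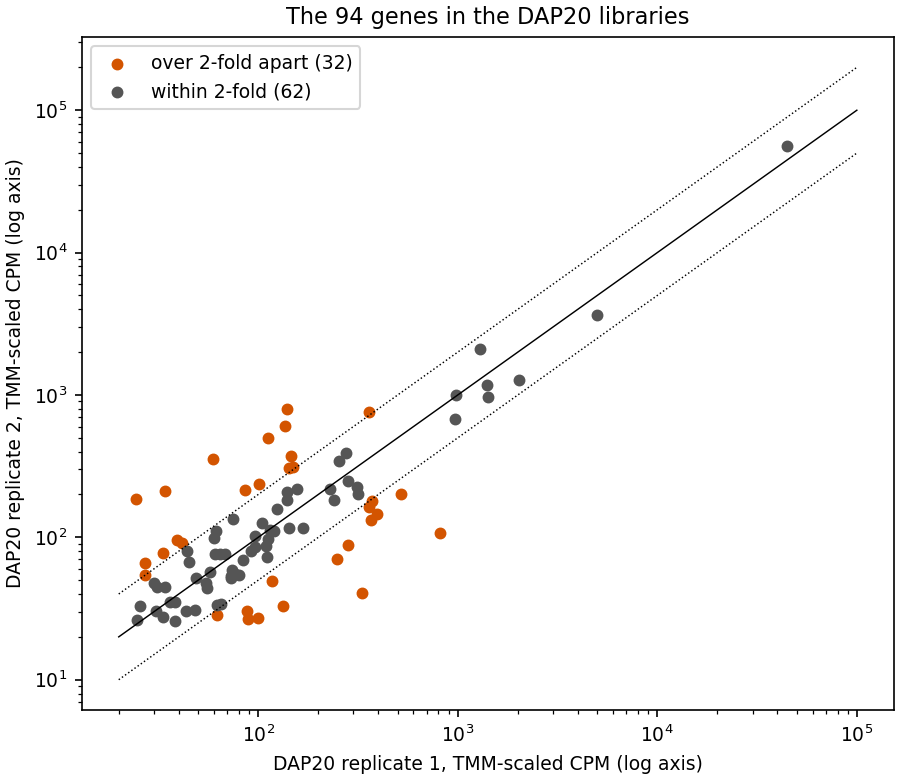
Level of the 94 genes in DAP20 replicate 2 (vertical) and replicate 1 (horizontal), in TMM-scaled CPM on log axes, with the line of equality and dotted lines at a 2-fold difference. The 32 genes outside the dotted lines lie on both sides, 15 with replicate 1 higher and 17 with replicate 2 higher.

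The extremes show the scale of this. Lus10009153.g.BGIv1.0 had 333 CPM in DAP20 replicate 1 and 40.9 CPM in replicate 2, a ratio of 8.13. At the other stages it had 1.85 and 2.88 CPM at DAP5, 3.03 and 3.18 CPM at DAP10, and 0 and 0.159 CPM at DAP30. The rule itself requires both DAP20 libraries to lie above all others, and the size of the peak is uncertain. Lus10018146.g.BGIv1.0 had 57.4 and 56.8 CPM at DAP20, a ratio of 1.01, with 10.1 and 8.10 CPM at DAP5, 11.9 and 9.11 CPM at DAP10, and 11.9 and 10.6 CPM at DAP30. This gene held an even level apart from its peak and was called in none of the comparisons among the other stages (edgeR FDR from 0.196 to 0.693).

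Among genes chosen in the same way at other stages, over 2-fold apart were 24 of the 552 genes peaking at DAP5 (4.35%), 2 of the 150 peaking at DAP10 (1.33%) and none of the 109 peaking at DAP30. When only 1 DAP20 library was asked to meet the rule, replicate 1 alone gave 178 genes and replicate 2 alone 179. The 94 members are the genes in both, which is 52.8% of the first list and 52.5% of the second. The corresponding shares were 72.5% and 73.8% at DAP5, 86.2% and 85.7% at DAP10, and 68.1% and 79.6% at DAP30. A further 84 genes met the rule in replicate 1 alone and 85 in replicate 2 alone.

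**Figure D5:**
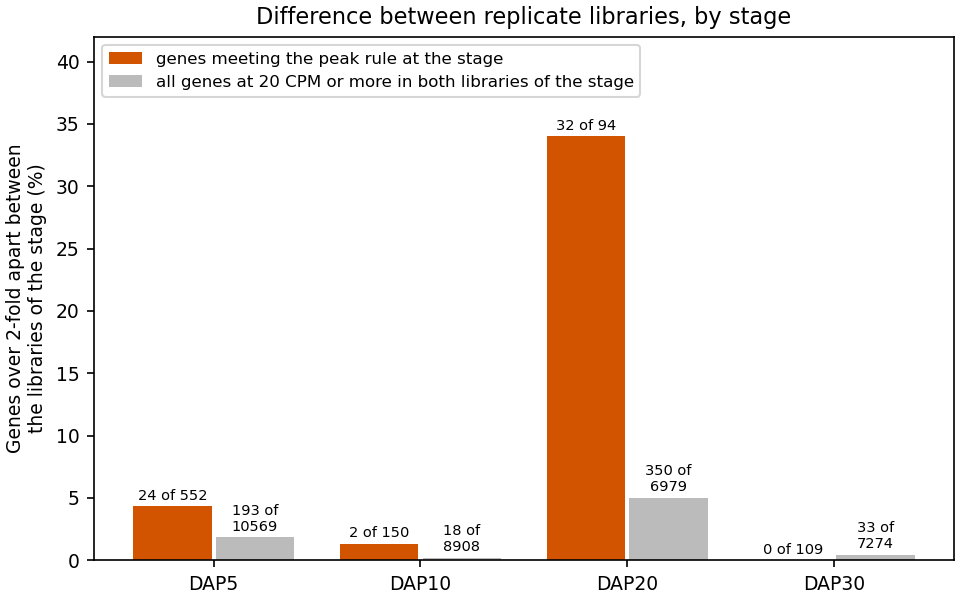
Percentage of genes whose level differed by more than 2-fold between the 2 libraries of a stage, for genes meeting the peak rule at that stage and for all Lus IDs at 20 CPM or more in both libraries of it. At DAP20 the values are 34.0% and 5.02%, and at the other stages all values lie below 5%.

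The direction of the difference between the DAP20 libraries varied among the members with what was measured at DAP30. Among the 32 members lower at DAP30 than at DAP10, replicate 2 was the higher DAP20 library in 20 and replicate 1 in 12, and of those more than 2-fold apart 9 had replicate 2 higher and 2 had replicate 1 higher. Among the 23 members higher at DAP30 than at DAP10, replicate 2 was higher in 6 and replicate 1 in 17. The median ratio of replicate 2 to replicate 1 was 1.31 in the genes lower at DAP30, 0.735 in those higher at DAP30 and 0.886 in the 39 not called. Over all 94 members replicate 2 was the higher DAP20 library in 42 (44.7%), beside 54.2% of the 9010 Lus IDs with a DAP20 mean of 20 CPM or more. Shares for other genes with the same DAP30 calls were not taken, so these counts show nothing particular to the members. Genes that met the rule in 1 DAP20 library only went the other way by their means. The DAP30 mean was above the DAP10 mean in 46 (54.1%) of the 85 genes of replicate 2 and in 28 (33.3%) of the 84 of replicate 1. The part of the DAP20 libraries in any of these groups was not tested.

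The DAP30 libraries also differed over the members. Of the 39 members with a mean of 5 CPM or more at DAP30, 31 (79.5%) were higher in replicate 2, beside 45.2% of the 15514 Lus IDs at that level. The median ratio of replicate 2 to replicate 1 was 1.32 over these members and 0.978 over those Lus IDs. Most members detected at this level at DAP30 thus had the higher value in replicate 2. Genes that missed the rule through 1 stage only also had higher DAP30 medians in replicate 2. In replicates 1 and 2 these were 197 and 215 CPM for those missing through DAP30, 15.5 and 20.1 CPM through DAP10, and 8.54 and 10.8 CPM through DAP5. The direction is thus not shown to be particular to the members. Without DAP30 replicate 1 the members' median log2 fold change was -0.24 for DAP30 against DAP10 and 0.82 for DAP30 against DAP5. Without DAP30 replicate 2 these medians were -0.35 and 0.36. The cause of the difference between the DAP30 libraries was not tested. At DAP10, 19 of the 45 members at 5 CPM or more (42.2%) were higher in replicate 2, beside 49.3% of all such Lus IDs, and at DAP5 these shares were 36% of 25 members and 48.4%.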

How the data were processed

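The authors deposited 1 table of raw read counts per gene for 8 flax seed libraries, with no normalization per the values, and a gene length. TRIzol extraction and NEBNext Ultra RNA libraries are named per the labels' protocols. No source used here names the aligner, counting tool, strand setting, genome build or annotation. CPM by library totals chose the genes. Counts were tested in R 4.3.3 with edgeR 4.0.16 (filterByExpr at 10 counts and a total of 15, TMM, quasi-likelihood model of stage alone, Benjamini-Hochberg adjustment over 28749 genes, FDR below 0.05). The fit had first been run on simulated counts in which few genes changed. Many genes were called in these data, so that run does not test the assumption behind TMM. Each standard error was taken as the size of the log2 fold change over the root of its F statistic. Alternatives used limma 3.58.1 and DESeq2 1.42.0 among others. A fold against no count is a bound set by 3 counts over the 2 libraries of the stage. Such bounds and the binomial intervals reflect counting error alone.

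The genes, the comparisons and the naming rule were chosen with earlier results of these data known. Named were the 2 genes highest at DAP20, the 2 largest called rises and falls in each comparison among the other stages (groups not overlapping, a mean of at least 5 CPM in the higher stage), the genes with the largest and smallest ratio between DAP20 libraries, and those at the limits of the rule. Gene lists by product name and promoter motifs were not used, since the IDs are not paired with names or sequences here.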

Additional observations from a re-analysis of the deposited data

How the results depend on the processing

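The rule found 121 genes with TMM-scaled CPM, 90 of them among the 94, 158 with a 2-fold limit, 48 with a 5-fold limit, 126 with a minimum of 10 CPM and 55 with a minimum of 50 CPM; fewer or more genes follow from the limits themselves. With 1 library left out it found 94 to 179. On TMM-scaled library sizes the members' mean share was 0.0538% of DAP5, 0.105% of DAP10, 7.38% of DAP20 and 0.829% of DAP30 counts, against 0.0763%, 0.115%, 6.13% and 0.640% on library totals, and the second-highest mean was that of DAP5 for 11 members in place of 19. For DAP10 against DAP5 the members called lower, 1 as reported, numbered 2 with library totals and with limma-voom, and 3 without the DAP20 libraries, with only the 2 stages in the fit and with DESeq2; the cause was not tested. With 1 library left out, which leaves a stage with a lone library assumed to vary like the others, 17 to 41 members were higher and 0 to 3 lower at DAP10 against DAP5, 19 to 29 higher and 26 to 33 lower at DAP30 against DAP10, and 35 to 43 higher and 19 to 30 lower at DAP30 against DAP5. The other 47 counts under alternatives with every library kept stayed within 1.5 times those reported, and no named gene changed direction under any alternative run. The stages share replicate numbers, but nothing says that these pair libraries: deviations of same-numbered libraries correlated at 0.0012 to 0.116 over 28749 genes. With the replicate number as a block, 38 members rose and 1 fell at DAP10 against DAP5, 26 and 32 did at DAP30 against DAP10, and 41 and 26 did at DAP30 against DAP5. Stages with 2 libraries, and low counts outside DAP20, limit what could be called.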

Other observations

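Genes that missed the rule only through DAP30 numbered 427. Their median levels were 132 and 166 CPM in the DAP20 libraries and 197 and 215 CPM in the DAP30 libraries, after 9.33 and 8.61 CPM at DAP10 and 3.70 and 3.95 CPM at DAP5. Of these 427, 256 were at least as high at DAP30 as at DAP20. The 30 genes that missed the rule only through DAP10 had medians of 68.5 and 62.7 CPM at DAP10, 214 and 182 CPM at DAP20, and 15.5 and 20.1 CPM at DAP30. These sets were chosen by the values given and have no test.

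Some genes met the rule in 1 DAP20 library only. The 84 genes of replicate 1 had medians of 56.6 CPM in that library and 15.4 CPM in replicate 2, and 2.02 and 2.15 CPM at DAP30. The 85 genes of replicate 2 had medians of 21.98 CPM in replicate 1 and 72.3 CPM in replicate 2, and 5.87 and 6.22 CPM at DAP30. The median DAP30 mean was 4.44% of the DAP20 mean in the first set and 19.7% in the second. The cause of the difference between the DAP20 libraries was not tested.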
